A study of Gallus gallus with 13 samples.

Results

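Serum was removed from chicken embryo fibroblasts that had already filled the dish, and the transcripts of these cells were set against those of equally confluent cells that kept their serum. The comparison rests on 7 of the 13 Affymetrix chicken arrays of the series: 3 of cells that were confluent and then starved, and 4 of cells that were confluent and fed. The arrays were chosen by their titles, and no measured value entered the choice. Both groups were primary fibroblasts from White Leghorn embryos at day 10, kept at 41.5 °C and used before passage 10. The contact-inhibited group ("fed" below) had its medium renewed at full confluence, with 5% heat-inactivated calf serum in it. The contact-inhibited and serum-starved group ("starved" below) was rinsed at the same density and given medium lacking serum. The basal medium of all groups held insulin and zinc, and the labels do not say that either was withdrawn together with the serum. How long the cells were confluent or starved is not given in the sources used here. The other 6 arrays, 3 of cycling cells in serum and 3 of sparse cells without it, gave the same step in cells that had not filled the dish. The arrays are labelled as biological replicates without a statement of which embryos they came from, so a p-value here measures the spread between these cultures, which may be technical, and the number of arrays limits the precision.

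Serum brings fibroblasts mitogens, lipoproteins, fatty acids on albumin, hormones and retinoids. Mitogens act through receptor kinases and the ERK kinases on immediate early genes such as EGR1, FOS and MYC, and ERK in turn raises its own brakes, the DUSP phosphatases and Sprouty proteins. Cells that lose mitogens, or that touch neighbours on all sides, leave the cycle before S phase and enter quiescence. Lipid supply is sensed by the SREBP system, which sets sterol and fatty acid synthesis, and by nuclear receptors that answer to fatty acids, steroids, thyroid hormone and retinoids.

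Each signal is a probe set intensity with no physical unit. Changes are differences between group means of log2(signal + 16), starved minus fed, with their standard error, and they understate the change of dim genes. Where a group mean lies under a signal of 22.7, the filter on mean level, the change depends on this offset. Among the genes named below this holds in fed cells for FBLN5, HSPB8, MYL4, PKP2 and TNNI2, and in starved cells for HINTW, ADAMTSL3, ACAN and ATP6V1G3. CYP24A1 and NOS1 lie under this level in every fed array but replicate 1, so their changes depend on the offset too. A gene was called where its limma p-value, adjusted over all 28270 tested probe sets, was under 0.05. Median signal of the 7 arrays lay between 62.98 and 68.9.

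Fed replicate 1 stood apart from the other fed arrays. It correlated with fed replicates 2 to 4 at 0.957 to 0.964 over the tested probe sets, whereas those 3 correlated with each other at 0.986 to 0.991 and the starved arrays among themselves at 0.981 to 0.993. Its correlation with the starved arrays, 0.932 to 0.938, was not higher than that of fed replicates 2 to 4, 0.940 to 0.950. It differed by at least 2-fold from the mean of replicates 2 to 4 at 1033 probe sets, against 60 for replicate 2 set against replicates 3 and 4. Genes of the W chromosome, which female birds carry, were part of this difference. Over 22 probe sets of W-linked genes the mean log2 signal was 7.19 to 7.30 in fed replicates 2 to 4, 6.28 in fed replicate 1 and 6.11 to 6.16 in the starved arrays. Between fed replicates 2 to 4 and the starved arrays, serum and the W-linked level therefore cannot be told apart, and fed replicate 1 is the fed array nearest to the starved arrays in that level. Each result is given over all 7 arrays, and the value against fed replicate 1 alone stands beside each called gene chosen by the naming rule whose call it ended or whose change it moved by over 1.5 times. With 1 fed array the spread is that of the other groups, the lone array is assumed to vary like them, and a call can be lost through the smaller number of arrays alone.

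The cells carried fibroblast markers in both groups. All 14 markers were measured. Their summed signal, which weighs the brightest most, was 113203 to 127297 in the fed and 120032 to 126424 in the starved arrays. FN1 (0.33), LUM (0.52) and DCN (0.21) were higher and COL5A1 (-0.24) was lower. COL1A1, COL1A2, COL3A1 and VIM were among the 10 that were not called. The summed signal of the adipocyte markers was 3123 to 13930 in the fed and 891 to 956 in the starved arrays. Most of the fed sum was FABP4, at 2480 to 12876. PPARG, FABP4 and CIDEC were lower among those 6 markers. ADIPOQ stood at 22.2 to 39.6, PLIN1 at 38.97 to 89.97 and LPL at 89.5 to 147 over the 7 arrays, and none of them was called. Of 9 tested skeletal muscle markers ACTA1, TNNI2 and MYLPF were higher, and the muscle regulators MYOD1, MYOG and MYF5 had signals of 15.99 to 43.01. Of 6 tested cartilage markers ACAN and SOX9 were lower and COL11A1 higher; of 6 endothelial markers VWF and ERG were higher, with CDH5 under the filter; of 6 macrophage markers CTSS was higher, and PTPRC (107 to 174) and SPI1 (37.7 to 90.2) were not called. The summed signal, fed against starved, was 1316 to 3366 against 4804 to 5226 for muscle, 2961 to 4280 against 4235 to 4775 for cartilage, 1158 to 1879 against 1838 to 2125 for endothelial and 705 to 907 against 893 to 1140 for macrophage and blood markers. ACTA1, COL11A1 and ERG had the largest signals of the muscle, cartilage and endothelial sets, so these sums weigh them most. Against fed replicate 1 alone the change of ACTA1 was 0.66 in place of 1.77, that of MYLPF 0.13 in place of 0.42, that of CIDEC -0.61 in place of -1.32 and that of ERG 0.09 in place of 0.59. COL11A1 changed by 1.41 in place of 0.68, and the fibroblast markers LUM and DCN by 0.28 and 0.08 in place of 0.52 and 0.21. No tested erythroid, epithelial or neural marker was called. In bulk RNA fewer cells of a type and less RNA per cell cannot be told apart, and the part of other cell types in the results below was not tested.

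More probe sets were called higher than lower without serum, though with quantile normalization the margin was small, 2620 against 2371. Of 28270 probe sets 3005 (10.6%) were higher and 1862 (6.59%) lower in starved cells; a change of 2-fold or more was found at 923 (3.26%) and 491 (1.74%). Counted with 1 probe set per gene, 1555 of 11527 genes (13.5%) were higher and 844 (7.32%) lower, and the median change of all genes was 0.02. The counts of each gene list below are to be set against these shares of all genes. The values of the 3 starved and 4 fed arrays did not overlap at 4063 genes (35.2%). Fed replicate 1 lay below every starved array at 1529 of the 1555 higher genes and above every starved array at 811 of the 844 lower genes. These genes were called with fed replicate 1 in the fed mean, so this order is in part fixed by their choice. Without fed replicate 1, 4977 probe sets were called, 2955 higher and 2022 lower. Of the 4867 calls over all 7 arrays, 4211 (86.5%) were then made again in the same direction. With fed replicate 1 as the whole fed group, 4207 probe sets were called, and 2483 of the 4867 calls (51.0%) were made again in the same direction; standard errors were then wider by a median factor of 1.48. Of the 4867 calls, 31 had the opposite sign.

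**Figure D1:**
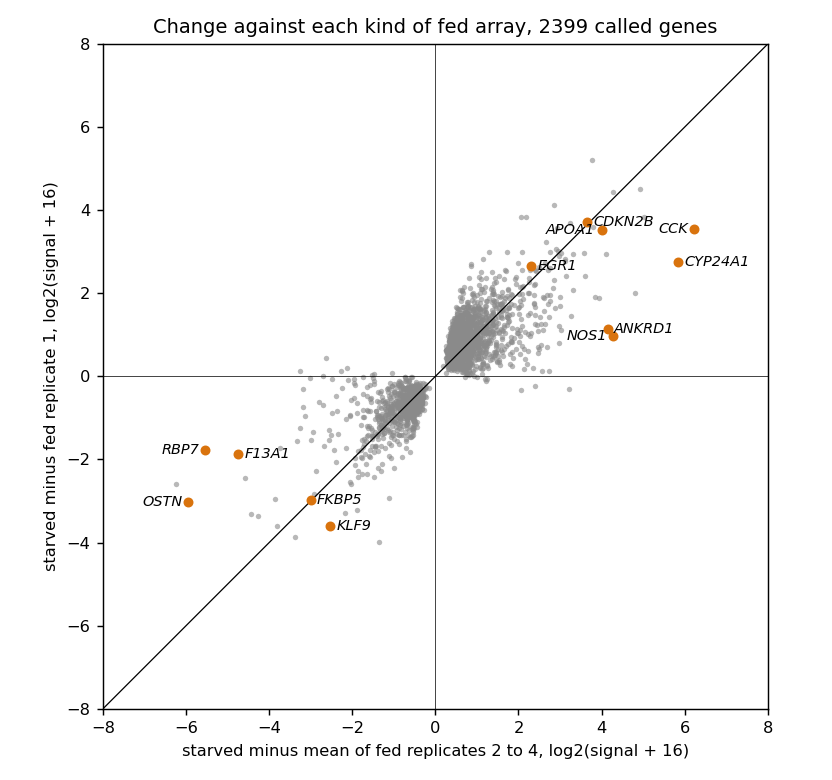
Change on serum removal for the 2399 called genes, measured against the mean of fed replicates 2 to 4 (x axis) and against fed replicate 1 alone (y axis), both as differences of log2(signal + 16); the line marks equal change. FKBP5, KLF9, CDKN2B, APOA1 and EGR1 lie near the line or beyond it, OSTN, RBP7, F13A1, CCK, CYP24A1, NOS1 and ANKRD1 lie closer to 0 on the y axis, and 16 genes have opposite signs.

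The 12 most strongly lowered genes without overlap included 2 lipid carriers, FABP4 and RBP7, and secreted peptides. FABP4, which carries fatty acids inside adipocytes and macrophages, had signals of 2480, 12876, 11125 and 9554 in the fed and 484, 446 and 411 in the starved arrays, a change of -4.05 ± 0.56 (limma adjusted p = 0.000266). RBP7, a cellular carrier of retinol, had 642 in fed replicate 1, 8723 to 9202 in the other fed arrays and 155 to 198 in the starved arrays (-4.59 ± 0.71). In both genes fed replicate 1 lay between the starved and the other fed arrays. Against fed replicate 1 alone FABP4 changed by -2.43 and RBP7 by -1.76, and both were still called. OSTN, the secreted peptide osteocrin, followed the same order: 659 in fed replicate 1, 4861 to 5510 in the other fed arrays, 57.5 to 72.5 without serum (-5.21 ± 0.54; -3.02 against fed replicate 1).

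PROK2, C1QTNF3, ACAN and CA9, also among the lowest 12, moved by less than 1.5 times when set against fed replicate 1 alone. PROK2, the secreted peptide prokineticin 2, had 663, 763, 767 and 779 in the fed and 32.5, 42.5 and 46.6 in the starved arrays (-3.75 ± 0.18, limma adjusted p = 3.25e-08). C1QTNF3, a secreted relative of adiponectin, went from 4842 ± 1349 (SD, n = 4) to 268 ± 16.5 (SD, n = 3), a change of -4.05 ± 0.22. ACAN, the large proteoglycan of cartilage, had 288 to 429 in the fed and 12 to 19.3 in the starved arrays (-3.50 ± 0.16). CA9, a carbonic anhydrase of the cell surface and a hypoxia target in mammals, had 811, 1669, 1476 and 1491 fed and 74.1, 97.8 and 104.5 starved (-3.63 ± 0.26). Of these 4 genes, fed replicate 1 had the lowest fed value of PROK2, C1QTNF3 and CA9 and the highest of ACAN.

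The lowest 12 genes also held some whose values hung more on single arrays. F13A1, the catalytic chain of the transglutaminase factor XIII, had 622 in fed replicate 1, 4492 to 5099 in the other fed arrays and 125 to 197 without serum (-4.03 ± 0.55; -1.86 against fed replicate 1). The V-ATPase subunit ATP6V1G3 had 38.8 in fed replicate 1, 174 to 237 in the other fed arrays and 0 to 1.68 in the starved arrays, 1 of which is listed at 0 (-3.23 ± 0.40; -1.72 against fed replicate 1). ADAMTSL3, a matrix protein related to the ADAMTS proteases, changed by -4.15 ± 0.72, but another of its 3 probe sets passed in the opposite direction, and against fed replicate 1 (-3.30) it was no longer called. HINTW, a W-linked gene, had 84.3 in fed replicate 1, 1188 to 1311 in the other fed arrays and 0 to 0.85 in the starved arrays (-5.33 ± 1.04), which is the W-linked difference described above; it was not called against fed replicate 1.

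**Figure D2:**
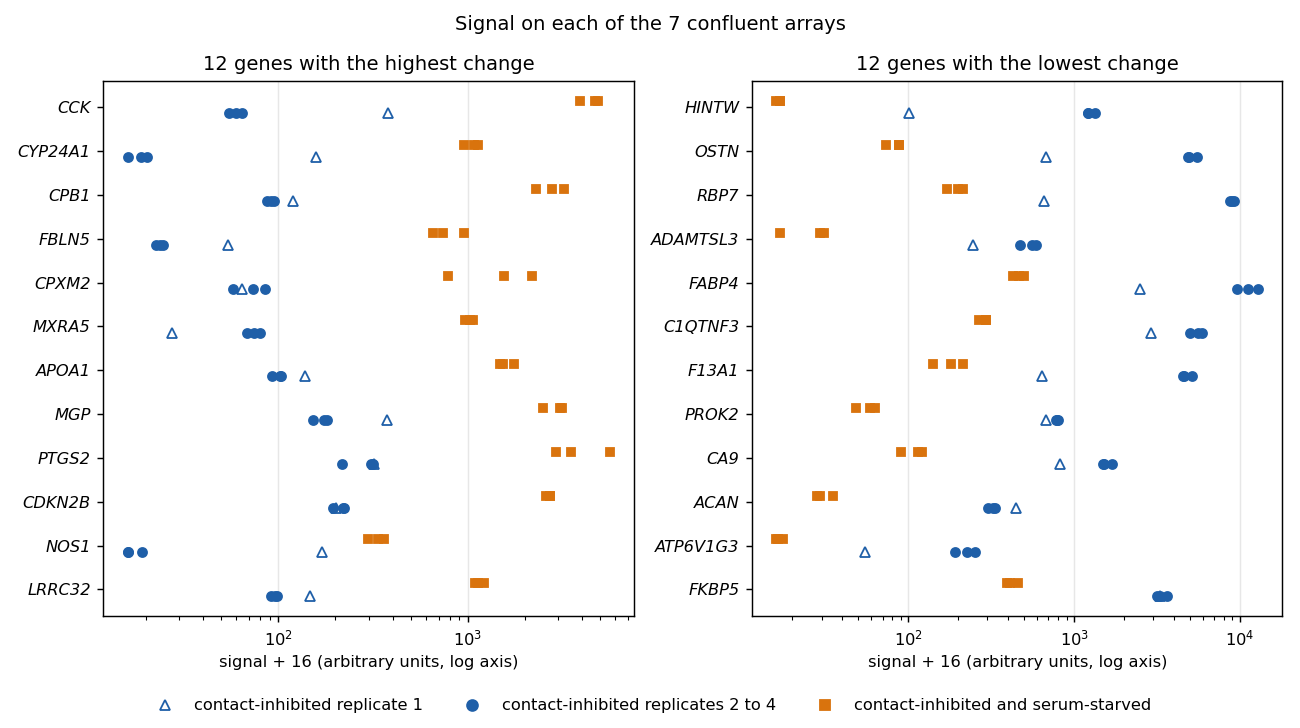
Signal + 16 on a log axis for the 12 genes with the highest and the 12 with the lowest change, 1 point per array. Open triangles are fed replicate 1, filled circles fed replicates 2 to 4 and squares the 3 starved arrays. The groups are apart for all 24 genes because only genes without overlap were ranked. The triangle lies between the circles and the squares for 19 of the 24 genes, all but ACAN, CDKN2B, CPXM2, FKBP5 and MXRA5.

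Several targets of steroid and thyroid hormones fell without serum. FKBP5, a co-chaperone of steroid receptors that glucocorticoids induce in mammals, had 3276, 3624, 3258 and 3136 in the fed and 376, 392 and 444 in the starved arrays. Its change was -2.99 ± 0.12 (limma adjusted p = 6.64e-09), all 3 of its probe sets passed, and the groups lay far apart with little spread in either. KLF9, a transcription factor that glucocorticoids and thyroid hormone induce in mammals and frogs, had 1224 in fed replicate 1, 553 to 613 in the other fed arrays and 73.5 to 95.6 in the starved arrays (-2.80 ± 0.25), and here fed replicate 1 was the highest array. DIO3, the deiodinase that inactivates thyroid hormone, fell from 1786 ± 226 to 504 ± 28.1 (-1.79 ± 0.19). ALDH1A3, which makes retinoic acid, went the other way, from 47.1 ± 5.90 to 431 ± 54.1 (2.82 ± 0.17). Of 30 measured genes of hormone response and the clock, 5 were higher and 8 lower, with a median of -0.08; the counts were 2 and 6 without starved replicate 1, 3 and 6 without starved replicate 2, and 3 and 8 without starved replicate 3. In sparse cells, where 11% of all genes were higher and 9.7% lower, the same step lowered FKBP5 by 1.59 on the log2 scale, and the difference between the responses, -1.40 ± 0.17, passed (limma adjusted p = 0.000234).

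Among called genes without overlap, CCK, CYP24A1 and CPB1 rose most. CCK, the peptide hormone cholecystokinin, had 364, 48.1, 43.4 and 38.8 in the fed and 3869, 4810 and 4659 in the starved arrays, a change of 5.56 ± 0.54 (limma adjusted p = 1.55e-05; 3.55 against fed replicate 1). CYP24A1, the enzyme that inactivates vitamin D, had 141 in fed replicate 1, 0 to 4.15 in the other fed arrays and 941 to 1113 in the starved arrays (5.07 ± 0.70; 2.74 against fed replicate 1). In both genes fed replicate 1 was the highest fed array. NOS1, the neuronal nitric oxide synthase, had 153 in fed replicate 1, 0.05 to 3.08 in the other fed arrays and 281 to 343 without serum (3.45 ± 0.63), and its change of 0.96 against fed replicate 1 was not called.

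The carboxypeptidases and matrix proteins among the 12 highest genes were less affected by that array. CPB1, carboxypeptidase B, had 71.1 to 103 in the fed and 3212, 2773 and 2275 in the starved arrays (4.82 ± 0.23, limma adjusted p = 3.3e-08). Its relative CPXM2, which lacks catalytic activity in mammals, had 41.8 to 69 in the fed and 2172, 1535 and 772 in the starved arrays (4.32 ± 0.37). FBLN5, an organiser of elastic fibres, had 37.9 in fed replicate 1, 6.65 to 8.7 in the other fed arrays and 636 to 940 without serum (4.73 ± 0.28). Among these 3 genes the starved arrays differed from each other most in CPXM2.

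MGP, an inhibitor of calcification, rose from 137 to 357 in the fed to 2475 to 3134 in the starved arrays (3.81 ± 0.37). APOA1, the main protein of high density lipoprotein, which birds express in many tissues, had 121, 85.4, 87.2 and 75.9 in the fed and 1512, 1736 and 1459 in the starved arrays (3.88 ± 0.16, limma adjusted p = 1.24e-08). LRRC32, a membrane protein that tethers latent TGF-beta, had 75.5 to 130 fed and 1068 to 1199 starved (3.43 ± 0.15), and the matrix remodelling gene MXRA5 11.4 to 63.9 fed and 952 to 1046 starved (4.14 ± 0.34). PTGS2, the inducible cyclooxygenase that starts prostaglandin synthesis, had 200 to 304 in the fed and 2881, 3482 and 5573 in the starved arrays (3.75 ± 0.26). That none of these 5 genes overlapped between the groups follows from the naming rule.

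Most measured genes of mitosis were called lower. Over all arrays no measured gene of DNA replication was called lower by its brightest probe set, but most of them were not called in either direction. Of 55 measured mitosis genes 35 were lower and 1 was higher, the checkpoint protein BUB3, which was chosen after its values were seen; 24 fell by at least 2-fold, and the median was -0.94. There were 24 lower and 0 higher genes against fed replicate 1 alone, and BUB3 was not called without starved replicate 2 or 3 or fed replicate 3. CDC20, the activator of the anaphase-promoting complex, had 1334, 1247, 1147 and 1100 in the fed and 308, 303 and 263 in the starved arrays (-1.99 ± 0.15, limma adjusted p = 1.4e-06). The checkpoint kinase BUB1B fell from 1077 ± 71.1 to 289 ± 17.2 (-1.84 ± 0.12), the spindle factor TPX2 from 1879 ± 154 to 553 ± 16.2 (-1.73 ± 0.12) and the kinase AURKB from 1092 ± 44.2 to 342 ± 12.9 (-1.63 ± 0.12). In these 4 genes the groups were several SDs apart, and fed replicate 1 lay with the other fed arrays.

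In the DNA replication list 7 of 43 genes were higher, 0 were lower, 36 were not called and the median was 0.15. With the probe sets of each gene averaged there were 9 higher and 1 lower. TYMS, thymidylate synthase, had 161, 247, 234 and 268 in the fed and 754, 720 and 581 in the starved arrays (1.54 ± 0.18, limma adjusted p = 7.81e-05), and the helicase subunit MCM2 rose from 152 ± 37.8 to 457 ± 64.7 (1.52 ± 0.21). MCM6 rose by 0.96 ± 0.23 (1.46 against fed replicate 1), a call lost without starved replicate 1 (limma adjusted p = 0.0504), and the replication factor GINS1 from 42.2 ± 12.3 to 107 ± 16.2 on 1 of its 2 probe sets, while the other passed as lower. Fed replicate 1 had the lowest signal of TYMS, MCM2, MCM6 and GINS1. The share higher, 16.3%, was near the 13.5% of all genes, but none was lower against 7.32% of all genes; without starved replicate 1 there were 4 higher genes and against fed replicate 1 alone 11, and without fed replicate 1 there were 8 higher and 1 lower. In sparse cells serum removal lowered 17 of the 43 replication genes and raised 0, and lowered 46 of the 55 mitosis genes and raised 0. The difference between confluent and sparse responses passed for 17 replication genes and 9 mitosis genes, positive in all of them. Among all genes it passed for 14.2%, with 8.85% positive and 5.34% negative.

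**Figure D3:**
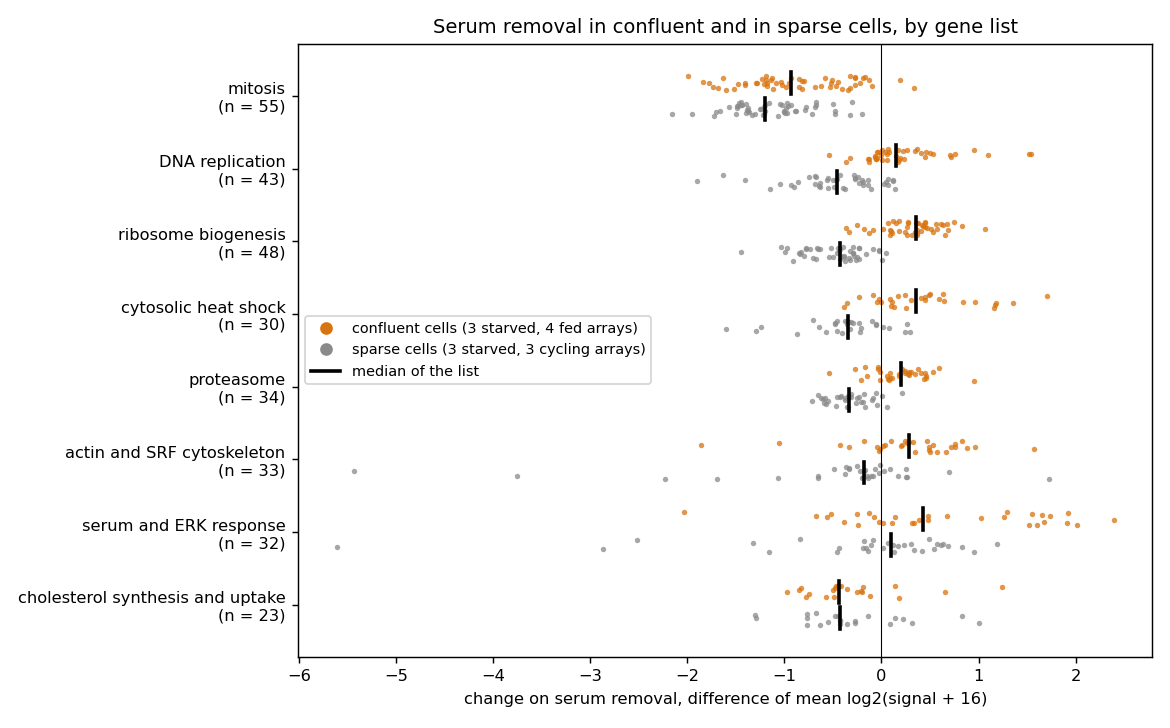
Change on serum removal of each measured member of 8 gene lists, as differences of mean log2(signal + 16), in confluent cells and in sparse cells; black bars are medians. The mitosis medians are -0.94 and -1.20, whereas the medians of ribosome biogenesis (0.36 and -0.43), heat shock (0.35 and -0.34), proteasome (0.20 and -0.34) and DNA replication (0.15 and -0.46) lie on opposite sides of 0.

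The cell cycle inhibitor CDKN2B had the smallest adjusted p of the genes named here. CDKN2B (p15), which blocks the D-type cyclin kinases, had 186, 204, 179 and 203 in the fed and 2679, 2679 and 2550 in the starved arrays, a change of 3.67 ± 0.09 (limma adjusted p = 6.96e-11). The groups were more than 10-fold apart with almost no spread in either. GAS2, a growth arrest protein of the microfilaments, had 199 in fed replicate 1, 634 to 800 in the other fed arrays and 2910 to 3240 in the starved arrays (2.51 ± 0.34; 3.84 against fed replicate 1). CDKN2A, whose chicken locus yields the ARF protein, rose from 2671 ± 88.2 to 4198 ± 352 (0.65 ± 0.08).

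CDKN1A (p21), the inhibitor that p53 induces, had 4405 in fed replicate 1, 1978 to 2237 in the other fed arrays and 4498 to 5730 without serum (1.00 ± 0.22), and against fed replicate 1 its change of 0.21 was not called. CCNG1, a p53 target, rose by 0.51 ± 0.07 and the cyclin CCND1 by 0.55 ± 0.11; the damage response gene GADD45A fell by 0.72 on the log2 scale. CDKN1B (p27), which accumulates in quiescent mammalian cells, had a change of -0.23 ± 0.12 and was not called. In the list of inhibitors and growth arrest genes as a whole 6 of 33 were higher and 1 lower (median 0.11), shares near those of all genes; without fed replicate 4 there were 6 and 2, and against fed replicate 1 alone 6 and 4.

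Of 32 measured genes that serum and ERK signalling normally induce, 13 were higher in the cells without serum, all by at least 2-fold, 4 were lower and 15 were not called. The median was 0.43, and without starved replicate 1 or 2 the counts were 13 and 2. EGR1, an immediate early transcription factor, had 1013, 1244, 1204 and 1483 in the fed and 5831, 5914 and 7951 in the starved arrays (2.39 ± 0.15, limma adjusted p = 2.74e-07). FOS, an AP-1 subunit, had 121, 85.1, 82 and 92.2 fed and 270, 210 and 505 starved (1.55 ± 0.26; 1.24 and not called against fed replicate 1). MYC, the growth-promoting factor, rose from 392 ± 67 to 1521 ± 115 (1.93 ± 0.20). The groups did not overlap in these 3 genes, and starved replicate 3 had the highest EGR1 and FOS.

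Several ETS factors downstream of ERK and brakes on ERK also rose. ETV5 had 96.8 to 154 in the fed and 512 to 580 in the starved arrays (2.01 ± 0.16, all 4 probe sets higher), and ETV1 rose by 1.92 ± 0.28 (1.01 against fed replicate 1). ETV4 rose by 1.60 ± 0.17 on the brighter of its 2 probe sets, while the other was lower. DUSP6, the phosphatase that inactivates ERK, had 206, 207, 209 and 230 in the fed and 740, 690 and 677 in the starved arrays (1.65 ± 0.13, limma adjusted p = 1.79e-06), and the groups did not overlap. The phosphatases DUSP5 (1.52 ± 0.28) and DUSP4 (1.26 ± 0.16), the ERK pathway inhibitor SPRY1 (1.68 ± 0.21) and the factors KLF2 (1.73 ± 0.13), ATF3 (1.30 ± 0.28; 0.65 and not called against fed replicate 1) and ID2 (1.02 ± 0.16) were also higher. DUSP1 (0.48 ± 0.45) and SPRY2 (0.48 ± 0.22) were not called over all arrays. Both were called without fed replicate 1 (1.03 and 0.68), but against that array alone they changed by -1.16 and -0.12, neither of them called.

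The 4 lower members of the same list were ID3, KLF10, MCL1 and ID4, whereas the related ID2 was higher. ID3, a BMP target that keeps helix-loop-helix factors off DNA, had 700 to 949.9 in the fed and 156 to 256 in the starved arrays (-2.04 ± 0.34; -1.72 and not called against fed replicate 1). The TGF-beta-induced factor KLF10 (-0.67 ± 0.17), the survival protein MCL1 (-0.56 ± 0.12) and ID4 (-0.52 ± 0.14) fell less; KLF10 was not called without starved replicate 1 or 2, nor ID4 without starved replicate 1 or 2 or fed replicate 3 or against fed replicate 1 alone (-0.66). JUN (-0.13 ± 0.23), IER3 (0.11 ± 0.24) and SRF (0.34 ± 0.20), the serum response factor itself, were not called; against fed replicate 1 alone JUN was lower (-0.87). In sparse cells 4 of the 32 genes were higher and 7 lower on serum removal (median 0.09), and the confluent response was the more positive in all 13 genes whose difference passed.

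**Figure D4:**
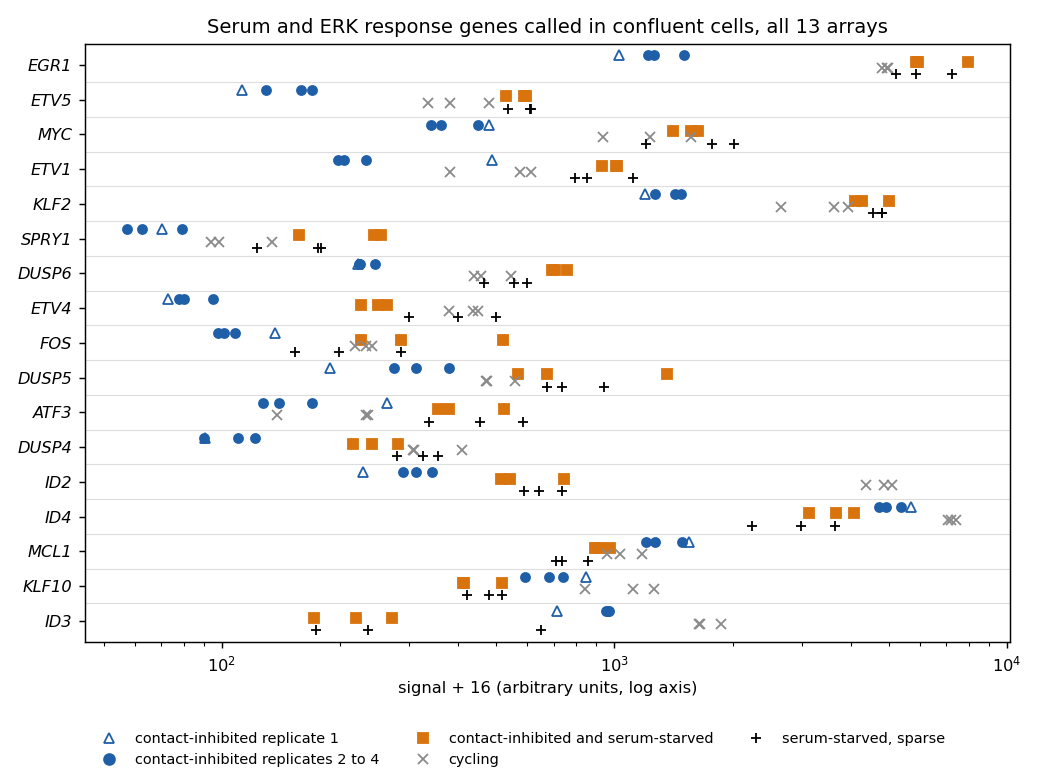
Signal + 16 on a log axis for the 17 serum and ERK response genes called in confluent cells, on all 13 arrays. Fed confluent cells (triangles for replicate 1, circles for 2 to 4) hold the lowest levels of EGR1, ETV5, MYC, ETV4 and DUSP4, and starved confluent cells (squares) lie near cycling cells (x) and sparse starved cells (+) in EGR1 and KLF2.

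The level from which these genes rose differed between the serum-fed states. EGR1 had a mean of 4888 in cycling and 1236 in fed confluent cells, and 6565 in starved confluent cells. MYC had 1229, 392 and 1521 in the same order, DUSP6 464, 213 and 702, ETV5 383, 127 and 555, and KLF2 3389, 1323 and 4440. Other called members had other orders. ID2 had 4758 in cycling, 278 in fed confluent and 583 in starved confluent cells, ETV4 405, 65.5 and 230, and DUSP4 326, 87 and 230, so that starved confluent cells stayed below cycling cells. ATF3 had 186, 159 and 403. The means of the cycling cells share no array with the confluent ones and are given as a description.

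Some chaperones, proteasome subunits and ribosome assembly factors rose in confluent cells, and members of the same lists fell in sparse cells. Of 30 cytosolic heat shock genes 13 were higher and 1 lower, the collagen chaperone SERPINH1, which was chosen after its values were seen; the median was 0.35. SERPINH1 was not called without starved replicate 1, and there were 13 and 2 without fed replicate 1 and 11 and 2 against it alone. HSPA8, the constitutive HSP70, had 2490, 2301, 2143 and 2361 in the fed and 5605, 5368 and 7089 in the starved arrays (1.36 ± 0.12, limma adjusted p = 6.87e-06). The HSP70 partner DNAJA4 rose from 729 ± 101 to 2400 ± 157 (1.70 ± 0.13) and DNAJB6 from 2215 ± 133 to 4345 ± 178 (0.97 ± 0.11). The small chaperone HSPB8 rose from 3.03 to 7.51 to 25.4 to 39.2 (1.18 ± 0.14). In sparse cells 9 of the 30 were lower and 0 higher, and the difference between the responses passed for 15, positive in each.

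Of 48 ribosome biogenesis genes 11 (22.9%) were higher and 0 lower (median 0.36), against 13.5% and 7.32% of all genes. The RNA acetyltransferase NAT10 rose from 138 ± 36.5 to 304 ± 69.8 (1.07 ± 0.21), the RNA polymerase I subunits POLR1E by 0.74 ± 0.13 and POLR1A by 0.63 ± 0.14 (0.96 against fed replicate 1), and the nucleolar GTPase GNL2 by 0.69 ± 0.15. Without starved replicate 1 the count of higher genes was 5 and without starved replicate 2 it was 6; against fed replicate 1 alone it was 17. In sparse cells 19 were lower and 0 higher, and the difference passed for 24 genes, positive in each.

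Of 34 proteasome genes 7 were higher and 0 lower (median 0.20), among them the activator PSME3 (867 ± 74.7 to 1693 ± 78.6; 0.96 ± 0.11) and the deubiquitinase PSMD14 (0.59 ± 0.11). The ATPases PSMC5 (0.53 ± 0.13) and PSMC2 (0.40 ± 0.09) were also higher, but not against fed replicate 1 alone, where they changed by 0.53 and 0.40; PSMC5 was not called without starved replicate 1 either (limma adjusted p = 0.0552). Without starved replicate 1 the list had 3 higher and 1 lower, without starved replicate 3 it had 4 and 0, without fed replicate 3 it had 4 and 1, and without fed replicate 4 it had 6 and 1. With the probe sets of each gene averaged there were 8 higher and 3 lower. Quantile normalization gave 4 and 2, and arrays centred on their median 4 and 1. Over all arrays the share higher was 20.6%, against 13.5% of all genes. In sparse cells 13 were lower and 0 higher. The difference passed for 13 genes, positive in each.

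A number of actin cytoskeleton genes rose, most by under 2-fold. Of 33 genes of the SRF and actin list 14 were higher and 1 lower, cardiac actin ACTC1, named after its values were seen. ACTC1 had 989 in fed replicate 1, 7447 to 9907 in the other fed arrays and 1126 to 1515 without serum, so that the starved arrays lay above fed replicate 1. The smooth muscle calponin-like TAGLN had 5237, 4895, 3976 and 4300 fed and 8627, 9630 and 8672 starved (0.97 ± 0.09, limma adjusted p = 9.4e-06). MYH10, a non-muscle myosin, rose by 0.82 ± 0.09, the regulatory light chain MYL9 by 0.72 ± 0.08 and the tropomyosin TPM2 by 0.66 ± 0.07. Without starved replicate 1 or 2 the counts were 9 and 0, and against fed replicate 1 alone 8 and 0; ACTC1 was called in none of these, nor without starved replicate 3 or fed replicates 2, 3 or 4, and without fed replicate 1 there were 14 and 3. In sparse cells 2 were higher and 9 lower.

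Of 17 YAP targets 3 were higher and 1 lower, shares near those of all genes (13.5% and 7.32%). ANKRD1, a nuclear ankyrin protein induced by YAP, had 482, 48.4, 38.8 and 52.6 in the fed and 1099, 886 and 1315 in the starved arrays (3.40 ± 0.62). The groups were apart, but the change of 1.15 against fed replicate 1 was not called. CRIM1 rose by 0.95 ± 0.14 and the YAP partner TEAD4 by 0.54 ± 0.08, whereas the nucleotidase NT5E fell by 0.91 on the log2 scale (-1.82 against fed replicate 1), a call lost without starved replicate 1 or 3 or fed replicate 2. Without fed replicate 1 the counts were 6 and 2.

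Of 32 measured genes of the amino acid deprivation response 13 were higher, 3 lower and 16 not called (median 0.43). In sparse cells 13 were higher and 1 lower (median 0.49), and the difference between the responses passed for 10, positive in 5 and negative in 5. CHAC1, which degrades glutathione and is a target of the factor ATF4, had 656, 602, 499 and 555 in the fed and 1918, 1874 and 3979 in the starved arrays (2.05 ± 0.25, limma adjusted p = 9.71e-05). MTHFD2, an enzyme of mitochondrial folate, rose from 286 ± 34.5 to 1030 ± 110 (1.80 ± 0.15), and the amino acid transporter SLC38A2 by 0.89 ± 0.12. STC2, a secreted glycoprotein on the same list, fell from 387 ± 30 to 38.5 ± 10.2 (-2.90 ± 0.17). The difference between confluent and sparse cells was positive for MTHFD2 (1.55 ± 0.22, limma adjusted p = 0.000733) and negative for STC2 (-2.01 ± 0.25), and did not pass for CHAC1 (0.16 ± 0.36).

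Cholesterol genes were more often lower than higher. Of 23 measured, 9 were lower (39.1%), 2 higher (8.70%) and 12 not called, with a median of -0.43. FDFT1, squalene synthase, had 1094, 1319, 1238 and 1276 in the fed and 704, 681 and 755 in the starved arrays (-0.77 ± 0.14, limma adjusted p = 0.00225). HMGCS1, an early enzyme of the pathway, had 1289, 1576, 1634 and 2162 against 1172, 912 and 855 (-0.74 ± 0.16). The groups were apart in both, but against fed replicate 1 neither was called (-0.61 and -0.40).

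The other 7 lower members lay at several steps. The mevalonate kinases PMVK (-0.97 ± 0.19) and MVK (-0.48 ± 0.14), the late enzymes HSD17B7 (-0.85 ± 0.20; -1.41 against fed replicate 1) and MSMO1 (-0.42 ± 0.07), the SREBP escort SCAP (-0.48 ± 0.15; -0.76 against fed replicate 1) and the sterol carrier STARD4 (-0.50 ± 0.12) were lower. MVK was not called without any of 5 of the 7 arrays in turn, nor SCAP without 5, and STARD4 was not called without starved replicate 3; against fed replicate 1 alone MVK (-0.37) and STARD4 (-0.54) were not called. INSIG1, the sterol-sensing brake on SREBP and itself an SREBP target, fell from 5185 ± 148 to 2917 ± 351 (-0.83 ± 0.14; -0.80 and not called against fed replicate 1), while the related INSIG2 rose from 365 ± 87.5 to 869 ± 100 (1.24 ± 0.20). The cholesterol exporter of lysosomes NPC1 was higher by 0.66 ± 0.17, but not against fed replicate 1 (0.22) or without starved replicate 1. SREBF2 (-0.57 ± 0.19), LSS (-0.45 ± 0.18), FDPS (-0.35 ± 0.16), SQLE (-0.21 ± 0.13) and DHCR7 (-0.19 ± 0.13) were not called, nor were the other members. Against fed replicate 1 alone 4 were lower and 2 higher, and without starved replicate 1 there were 8 and 1. In sparse cells 10 were lower and 1 higher, with a median of -0.42.

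Of 24 fatty acid synthesis genes 4 were lower (16.7%) and 2 higher (8.33%), with a median of -0.18. The balance turned against fed replicate 1 alone, with 1 lower and 3 higher, and without starved replicate 2, fed replicate 2 or fed replicate 3 there were 2 of each. AGPAT2, an enzyme of phosphatidic acid and triglyceride synthesis, had 441, 590, 531 and 667 in the fed and 216, 209 and 237 in the starved arrays (-1.26 ± 0.19; -0.95 and not called against fed replicate 1). MID1IP1, an activator of acetyl-CoA carboxylase, fell from 1007 ± 116 to 494 ± 78.5 (-1.01 ± 0.15). SCD (-0.58 ± 0.17), the desaturase, and ACACB (-0.56 ± 0.17), an acetyl-CoA carboxylase, were lower, but each call was lost when any of 5 arrays was left out, and neither was called against fed replicate 1 alone (-0.65 and -0.45); ACACB also overlapped between the groups. The elongase ELOVL5 (0.70 ± 0.09) and the acyl-CoA synthetase ACSL4 (0.94 ± 0.15, with 2 of its 4 probe sets called) were higher. FASN (-0.09 ± 0.15), ACACA (-0.11 ± 0.18) and SREBF1 (-0.21 ± 0.13), the centre of the pathway, were not called.

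Which genes of fatty acid oxidation and PPAR targets were called depended on the fed arrays used. Without fed replicate 1, 5 were lower and 0 higher. The 4 genes lower over all arrays had a median change of -0.41 against fed replicate 1. Against fed replicates 2 to 4 their median change was -1.35. Of 22 measured, 4 were lower and 0 higher over all arrays, whereas against fed replicate 1 alone 0 were lower and 4 higher, and with the W-linked level as a covariate 1 was lower and 5 higher. PDK4, a kinase that spares glucose when fat is burned, had 277 in fed replicate 1, 790 to 1011 in the other fed arrays and 127 to 180 in the starved arrays (-2.08 ± 0.38), and PPARG, the adipocyte receptor, 321 to 586 against 181 to 226 (-1.06 ± 0.26). Neither was called against fed replicate 1 alone (-0.87 and -0.61), nor was the oxidation enzyme HADHB (-0.53 ± 0.12; -0.21). PPARG is itself among the adipocyte markers given above, of which FABP4 and CIDEC were also lower and ADIPOQ, PLIN1 and LPL were not called. The part of adipocytes in these changes was not tested.

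Lipid carriers moved both ways, with 7 of 34 higher and 8 lower, 4 and 5 against fed replicate 1 alone, and 5 and 5 without starved replicate 2. Beside FABP4 and APOA1, the endothelial lipase LIPG had 4639 to 5957 in the fed and 1593 to 1923 in the starved arrays (-1.57 ± 0.15), and MYLIP, the ligase that removes lipoprotein receptors, rose from 473 ± 90.4 to 997 ± 45.5 (1.07 ± 0.15). The difference from sparse cells was negative for LIPG (-1.84 ± 0.21, limma adjusted p = 0.000159) and FABP4 (-4.39 ± 0.82) and positive for APOA1 (2.23 ± 0.24). In confluent cells 20.6% of the lipid carriers were higher and 23.5% lower, against 13.5% and 7.32% of all genes.

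Hypoxia and glycolysis genes split. Of 33 measured, 8 were lower (24.2%) and 6 higher (18.2%), with a median of -0.22. Of all genes 7.32% were lower and 13.5% higher. HIF1A, the oxygen-regulated subunit of the hypoxia factor, had 6715 in fed replicate 1, 3357 to 3458 in the other fed arrays and 1252 to 1598 in the starved arrays (-1.54 ± 0.21, limma adjusted p = 0.000248). CA9 fell, as above, the glycolytic enzyme PFKP fell by 0.39 on the log2 scale, and INSIG2 rose. Against fed replicate 1 alone 5 were lower and 4 higher.

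Of 30 genes of the insulin and FOXO response 10 were higher, 2 lower and 18 not called (median 0.18), and in sparse cells 6 and 3 (median 0.23). PIK3IP1, an inhibitor of PI3-kinase, had 306, 183, 168 and 186 in the fed and 1174, 1167 and 1380 in the starved arrays (2.50 ± 0.18, limma adjusted p = 1.13e-06). The insulin receptor INSR rose from 57.4 ± 13.9 to 203 ± 23.2 (1.59 ± 0.20), the AKT phosphatase PHLPP1 from 77.3 ± 7.58 to 188 ± 24 (1.13 ± 0.14) and the ubiquitin ligase FBXO32 from 290 ± 26.4 to 571 ± 30.5 (0.94 ± 0.15). That no group overlapped in these 4 genes follows from the naming rule. The difference from sparse cells passed for 1 gene of the list, and for none of these 4.

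Of 53 matrix proteins other than collagens 12 were higher and 9 lower, and 8 and 4 against fed replicate 1 alone. FBN2, a fibrillin of developing microfibrils, had 195, 220, 194 and 252 in the fed and 1657, 1722 and 1854 in the starved arrays (2.93 ± 0.21), beside FBLN5 and MGP; ACAN fell. Of 37 collagens and collagen enzymes 6 were higher and 9 lower (median -0.23), 5 and 5 without starved replicate 1, and 3 and 7 against fed replicate 1 alone. The basement membrane chain COL4A2 rose from 2019 ± 343 to 3956 ± 356 (0.98 ± 0.14) and COL8A1 from 3324 ± 1074 to 10930 ± 852 (1.76 ± 0.20; 1.14 against fed replicate 1, which had 4935), whereas the collagen VI chains COL6A3 (-0.87 ± 0.15) and COL6A1 (-0.42 ± 0.07) fell. In sparse cells both collagen VI genes rose, by 1.32 and 1.31, and the differences of -2.19 ± 0.21 and -1.74 ± 0.10 passed. In confluent cells 16.2% of the collagen list was higher, near the 13.5% of all genes, and 24.3% lower, against 7.32%. For the other matrix proteins the shares were 22.6% and 17.0%.

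Of 47 matrix proteases and inhibitors 12 were higher and 4 lower. SERPINB2, an inhibitor of plasminogen activators, had 11.2 in fed replicate 1, 36.9 to 63.2 in the other fed arrays and 366 to 563 without serum (3.17 ± 0.34). ADAMTSL1 had 48.3 to 55.3 fed and 365 to 462 starved (2.66 ± 0.17), with 1 of its 3 probe sets called. With CPB1 and CPXM2 these genes were at least 2-fold higher; 10 of the 12 were. Set against fed replicate 1 alone, 9 proteases and inhibitors were higher and 2 lower. Of 42 adhesion genes 5 were higher and 5 lower, 11.9% each against 13.5% and 7.32% of all genes. The integrin subunits ITGA4 (from 594 ± 131 to 1681 ± 95.8) and ITGB3 (1.83 ± 0.33; 0.62 and not called against fed replicate 1) and the desmosomal PKP2 (1.55 ± 0.20) were higher and the cadherin CDH17 (-0.90 ± 0.18) lower; the counts were 4 and 2 without starved replicate 1, 3 and 4 without starved replicate 2, 4 and 3 without starved replicate 3 or fed replicate 2, and 2 and 1 against fed replicate 1 alone.

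Of 41 Wnt genes 14 were higher (34.1%) and 1 was lower (2.44%). The lower gene was the feedback inhibitor NKD1, named after its values were seen, and 7 genes rose by at least 2-fold. NKD1 was not called without starved replicate 3, and there were 12 and 2 without fed replicate 4 and 9 and 3 against fed replicate 1 alone. SFRP2, a secreted Wnt binding protein, had 398, 570, 551 and 537 in the fed and 2360, 2236 and 2665 in the starved arrays (2.21 ± 0.17, limma adjusted p = 1.47e-06). DKK3 rose from 1252 ± 194 to 3541 ± 277, the receptor FZD4 by 1.20 ± 0.17 and NOTUM, which inactivates Wnt proteins, by 1.07 ± 0.14. Of 52 growth factors and receptors 14 were higher (26.9%) and 7 lower (13.5%). The receptors ERBB4 (40.3 ± 20.8 to 227 ± 36.2; 2.16 ± 0.23) and MET (115 ± 12.9 to 312 ± 34.5; 1.32 ± 0.13), the neurotrophin BDNF (1.44 ± 0.20; 0.95 against fed replicate 1) and the secreted WISP1 (1.03 ± 0.10) were among those higher. Against fed replicate 1 alone 9 growth factor genes were higher and 4 lower, and the counts were 13 and 4, 11 and 4, and 10 and 4 without starved replicates 1, 2 and 3.

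Of 37 TGF-beta and BMP genes 7 were higher and 5 lower, against 13.5% and 7.32% of all genes. The signal transducer SMAD3 rose from 707 ± 90.5 to 1603 ± 147 (1.17 ± 0.13) and the ligand BMP2 from 51.8 ± 5.48 to 168 ± 27.5 (1.43 ± 0.14), while the activin and BMP antagonists FST (-1.34 ± 0.14) and CHRDL2 (-0.78 ± 0.13) fell. BMP2 fell in sparse cells by 1.63 on the log2 scale, and the difference of 3.06 ± 0.21 passed. Without starved replicate 2 the counts were 3 and 3, without starved replicate 1 or fed replicate 4 they were 6 and 3, without fed replicate 2 they were 7 and 3, and against fed replicate 1 alone 3 and 4.

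Of 29 cytokine and chemokine genes 8 were higher, 7 of them by at least 2-fold, and 3 lower. Beside PTGS2, the ligand TNFSF15 had 248 to 687 in the fed and 1813, 1966 and 2955 in the starved arrays (2.58 ± 0.33; 1.65 against fed replicate 1), and the chemokine CX3CL1 rose from 53.6 ± 5.73 to 127 ± 9.95 (1.04 ± 0.13). IL15 fell from 724 ± 65 to 293 ± 60.2 (-1.27 ± 0.19). Of 39 interferon genes 3 were higher (7.69%) and 2 lower (5.13%), under the 13.5% and 7.32% of all genes. IRF1 rose from 48 ± 10.3 to 187 ± 44.8 (1.65 ± 0.18); TRIM25 (-0.47 ± 0.13) was not called without starved replicate 1, 2 or 3 or fed replicate 2, nor against fed replicate 1 alone (-0.56). Leaving out starved replicate 1, starved replicate 2 or fed replicate 2 gave 3 interferon genes higher and 0 lower, fed replicate 3 gave 3 and 1, and fed replicate 1 as the fed group gave 6 and 0.

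Lysosome, redox and ion transport genes held single large changes. MAP1LC3C, an autophagosome protein, had 140, 85.3, 61.6 and 91.4 in the fed and 802, 758 and 904 in the starved arrays (2.96 ± 0.19, limma adjusted p = 5.02e-07), in a list of 58 autophagy and lysosome genes with 8 higher and 5 lower, shares near those of all genes (13.5% and 7.32%); the cathepsins CTSC (1.00 ± 0.17) and CTSO (0.80 ± 0.14) rose and CTSB (-0.66 ± 0.10) fell. Leaving out starved replicate 1 gave 4 and 3, starved replicate 2 gave 6 and 2, starved replicate 3 gave 5 and 3, fed replicate 2 gave 5 and 2, fed replicate 3 or 4 gave 6 and 3, and in sparse cells 21 were higher and 0 lower. The zinc importer SLC39A8 had 50.6 to 70.1 fed and 861, 655 and 491 starved (3.22 ± 0.23), among 42 ion transport genes with 10 higher and 6 lower; without starved replicate 1 the counts were 7 and 2, without starved replicate 2 they were 7 and 3, without starved replicate 3 they were 9 and 3, without fed replicate 2 or 3 they were 8 and 3, and against fed replicate 1 alone 6 and 3.

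Of 42 antioxidant genes 7 were higher and 7 lower, 7 and 4 without starved replicate 1, 6 and 4 without starved replicate 3, and 8 and 2 against fed replicate 1 alone. The glutathione synthesis subunit GCLM rose from 698 ± 52.5 to 1668 ± 174 (1.24 ± 0.16), the metallothionein MT4 from 2357 ± 632 to 5667 ± 363 (1.29 ± 0.18; 0.82 against fed replicate 1), and the selenoenzyme GPX4 fell from 7736 ± 1302 to 3548 ± 97.7 (-1.10 ± 0.13; -0.73 against fed replicate 1). The antioxidant shares were 16.7% higher, near the 13.5% of all genes, and 16.7% lower, against 7.32%. Of 54 respiratory chain genes 5 were higher (9.26%) and 8 lower (14.8%). The counts were 5 and 2 without starved replicate 1, 5 and 3 without starved replicate 2, and 5 and 5 without starved replicate 3 or fed replicate 2. With quantile normalization they were 5 and 17. The complex I subunits NDUFS4 (1.05 ± 0.15) and NDUFA5 (0.90 ± 0.16) had the highest changes. Endoplasmic reticulum folding genes had 3 of 35 higher (8.57%) and 2 lower (5.71%), under the 13.5% and 7.32% of all genes. XBP1, a regulator of the unfolded protein response, was at 0.69 ± 0.13 and the isomerase PDIA5 at -0.63 ± 0.10. Leaving out starved replicate 1 or 2 gave 1 and 2, and quantile normalization 2 and 6.

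**Figure D5:**
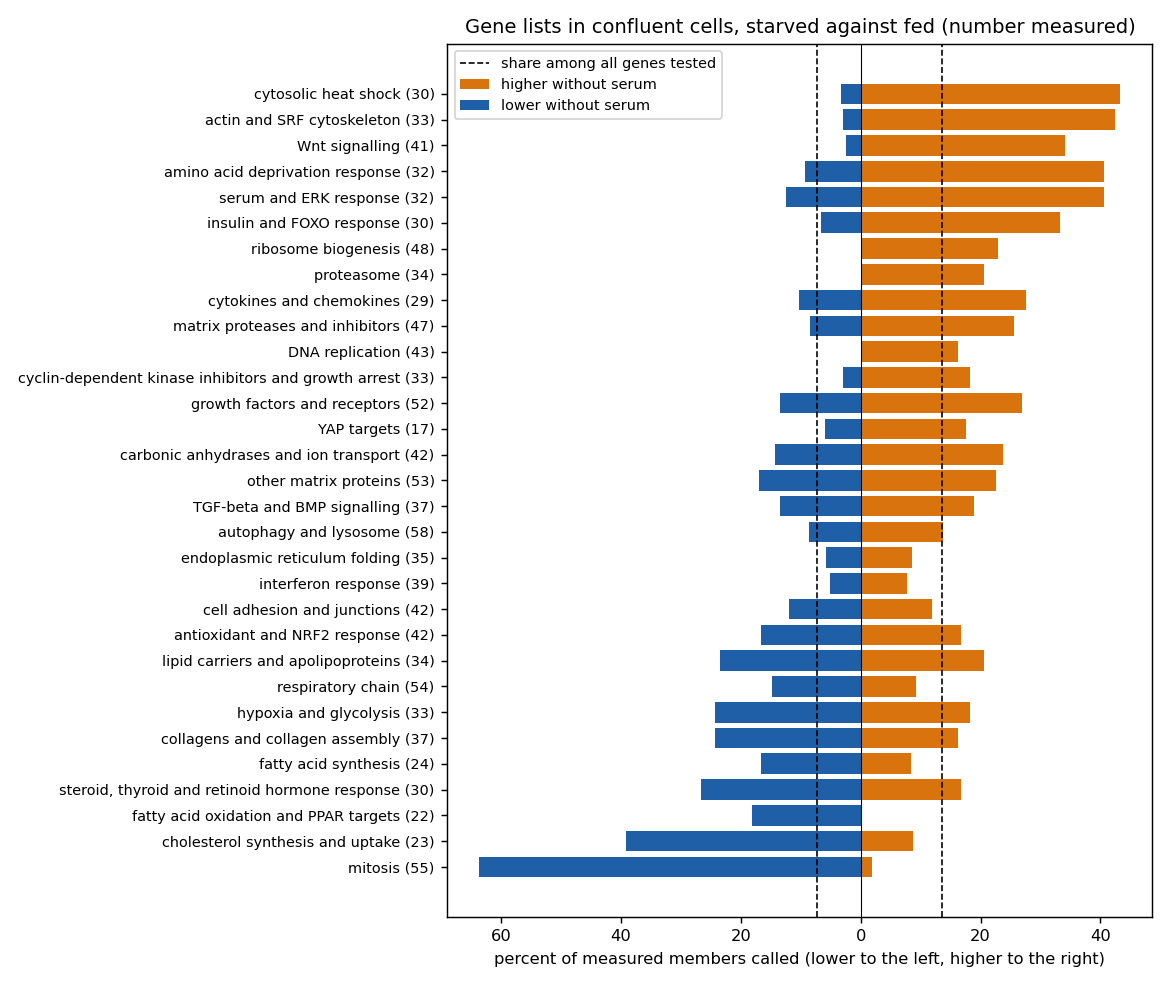
Share of the measured members of each of 31 gene lists called higher (right) or lower (left) in starved than in fed confluent cells, in percent, with the number measured in brackets; dashed lines mark the shares of all genes tested, 13.5% and 7.32%. Mitosis has the largest share lower, 63.6%, and cytosolic heat shock the largest share higher, 43.3%.

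The response to serum removal differed between confluent and sparse cells for 1635 of 11527 genes (14.2%), with the confluent change the more positive in 1020 (8.85%) and the more negative in 615 (5.34%). In the sparse comparison too the W-linked level differed. It was 7.07 to 7.12 in cycling cells, 6.66 in sparse starved replicate 1, and 5.98 and 6.04 in sparse starved replicates 2 and 3. Sparse starved replicate 1 also had 633 for FABP4, against 153 and 143 in replicates 2 and 3. Median signal was 52.1 in cycling replicate 3 and 62.3 to 66.5 in the other cycling and sparse starved arrays. None of these arrays was left out in turn, so how far the differences rest on single ones was not tested. Among genes whose fed and starved confluent values do not overlap, SERPINB2 had the highest difference, 5.78 ± 0.50 (limma adjusted p = 1.31e-05). SERPINB2 rose in confluent cells and fell in sparse cells, from 971 to 2120 in cycling to 212 to 290 in starved cells. ID1, a BMP target, had 4671 to 6325 in cycling and 80.8 to 128 in sparse starved cells, but 92.2 to 99.1 and 62.5 to 77.4 in fed and starved confluent cells, where it was not called (difference 5.22 ± 0.23). The atrial light chain MYL4 likewise had 929 to 953 in cycling and 5.98 to 11.9 in fed confluent cells (difference 4.66 ± 0.19). For ANKRD1 (5.13 ± 0.91; 2.89 with fed replicate 1 as the fed group) and CCK (4.93 ± 0.79; 2.92) the sparse change, -1.74 ± 0.66 and 0.63 ± 0.58, was not called.

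At the other end of the same ranking stood genes that fed confluent cells held high and cycling cells low. OSTN had 183 to 191 in cycling and 177 to 237 in sparse starved cells (difference -5.37 ± 0.80; -3.18 with fed replicate 1 as the fed group), and CA9 16.1 to 29.8 and 24.2 to 57.7 (difference -4.08 ± 0.38). FABP4 had 111 to 261 and 143 to 633 (difference -4.39 ± 0.82; -2.77 and not called with fed replicate 1 as the fed group). The matrix protein SPON2 (difference -5.08 ± 0.48) and the secreted NELL2 (-4.41 ± 0.53) rose in sparse cells, by 3.48 ± 0.35 and 2.78 ± 0.39, and fell in confluent cells, by 1.60 and 1.64 on the log2 scale; the confluent calls of both were lost against fed replicate 1 alone (-0.52 and -1.18).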

How the data were processed

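Per the submitters' processing notes, the authors summarised each probe set to 1 linear intensity with PLIER in Affymetrix Expression Console 1.1; scaling between arrays is not given in the sources used here. Of 38535 probe sets, 37693 with a chicken ID were kept, and the 153 control and 689 other probe sets were not used. An offset of 16 was added, log2 taken, and probe sets under the 25th percentile of mean log2 left out. The 4 group means were fitted over all 13 arrays with limma 3.58.1 (lmFit, eBayes with trend) under R 4.3.3 (residual degrees of freedom 9, prior 4.33); p-values are two-sided and Benjamini-Hochberg adjusted within each comparison. The confluent-sparse difference is (starved minus fed) minus (sparse starved minus cycling), which share no array. A gene, from the array annotation, took the values of its brightest probe set; 5713 genes had more than 1. Figures used Python 3.11.15 and matplotlib 3.10.9.

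Named genes were the 12 highest and 12 lowest called genes and up to 4 called members per list with the smallest adjusted p. The 5 highest and 5 lowest called differences from sparse cells were also named. All of these were taken only from genes whose fed and starved confluent values do not overlap. LOC and ORF symbols were left out of the highest and lowest genes and differences. All members of 4 lists (serum response, cholesterol, fatty acid synthesis, growth arrest) were named with or without overlap. Gene lists came from textbook knowledge and carry no set test. Members, lists and tests were chosen with earlier results of these data known. Replicate numbers were not taken as pairs: residuals of same-numbered fed and starved arrays correlated at -0.153, 0.134 and -0.045.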

Additional observations from a re-analysis of the deposited data

Results flagged for a closer look

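Among the 161 called named genes, 29 had a fed array far from the other 3. This was judged by the gap to the nearest array over the group's range, set against the critical value of Dixon's test. Chance alone flags about 1 group in 20. Over all 11527 genes the share was 7.73%, and 678 of the 891 such genes had fed replicate 1 as the far array. Over the 2399 called genes the share was 9.80%, and fed replicate 1 was the far array in 200 of 235. Fed replicate 1 was the highest array, with ratios in the same order, for ANKRD1 (0.899), CCK (0.919), CDKN1A (0.846), COL8A1 (0.964), CYP24A1 (0.899), FBLN5 (0.9001), HIF1A (0.957), KLF9 (0.870), LRRC32 (0.858), NOS1 (0.927), PIK3IP1 (0.837) and SLC39A8 (0.898). It was the lowest for CA9 (0.830), CTSC (0.881), F13A1 (0.939), GAS2 (0.8293), HADHB (0.888), HINTW (0.962), ID3 (0.947), MXRA5 (0.847), OSTN (0.941), PROK2 (0.870), RBP7 (0.980), SFRP2 (0.833) and SPON2 (0.840). Other fed arrays stood apart for BUB1B (replicate 2 highest, 0.936), DUSP6 and MET (replicate 4 highest, 0.890 and 0.952) and PTGS2 (replicate 3 lowest, 0.905).

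The 10 genes named for the difference between confluent and sparse cells were picked from its called genes, so that they passed follows from the choice. The differences were positive for SERPINB2 (5.78), ID1 (5.22), ANKRD1 (5.13), CCK (4.93) and MYL4 (4.66), and negative for OSTN (-5.37), SPON2 (-5.08), NELL2 (-4.41), FABP4 (-4.39) and CA9 (-4.08).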

How the results depend on the processing

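Leaving out each of the 7 confluent arrays in turn gave 3171 to 4977 called probe sets in place of 4867 (3171 without starved replicate 1 and 3176 without starved replicate 2), 1930 to 3787 in place of 3057 for the difference from sparse cells (1930 and 1951 without the same arrays), 285 to 413 list genes in place of 386, and 150 to 159 of the 161 called named genes; all 4867 calls kept their sign. Array weights gave 10145, 7138 and 628. A replicate block, whose numbers mark no pairing, gave 3943, 2290, 333 and 156. Fed replicate 1 alone as the fed group gave 4207, 3218, 309 and 130. With the W-linked level as a covariate the counts were 4612, 4206, 346 and 136, 2681 calls (55.1%) were shared, standard errors widened by a median factor of 1.47, and IER3, not called in the report, reversed to -0.74. The share of higher calls was 61.7%, 52.5% with quantile normalization and 69.2% and 71.2% in the last 2 settings; for the difference from sparse cells 1686 were positive and 1371 negative, and 2154 and 1077 with arrays centred on their medians. These totals stayed within 1.5 times with offsets of 1 and 64, no filter or a filter at the median, and no variance trend. So they did with the 7 arrays alone and, for list genes, the mean of all probe sets. Counts of single lists moved more, and only part of these moves is given beside the lists. With the W-linked level as a covariate, 23 ribosome biogenesis and 14 replication genes were higher. In that setting the TGF-beta and BMP list had 2 higher and 3 lower. Quantile normalization gave 5 higher and 10 lower autophagy and lysosome genes, and 5 and 12 hypoxia and glycolysis genes. Genes near the filter are the least certain, and the cause of these shifts was not tested.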
